A study of Mus musculus with 12 samples.

Results

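The forestomach of wild-type C57BL/6J mice given alcohol for 4 weeks was compared with the forestomach of mice given none, by gene expression on Agilent mouse arrays. The comparison uses 8 of the 12 samples of the study: the 4 titled as negative control and the 4 titled as 4-week 20% alcohol. The control mice drank a supersaccharin solution without alcohol and the 4-week mice drank 20% alcohol in the same sweet solution, so the sweetener was common to both groups. All mice were adults, and each array holds RNA of whole forestomach. The labels do not say whether the replicates of a group came from separate animals, and the p-values therefore describe how these samples scatter, which may reflect technique alone. The 4 arrays of mice given 15% alcohol for 40 weeks were not used here.

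The forestomach is the non-glandular first chamber of the stomach in rodents; its lining is a keratinising, layered squamous epithelium that rests on connective tissue and smooth muscle, and it is the first part of the stomach to meet swallowed ethanol. Ethanol is oxidised to acetaldehyde by alcohol dehydrogenases and, in the liver above all, by the cytochrome Cyp2e1, and acetaldehyde is oxidised to acetate by aldehyde dehydrogenases. Squamous epithelia of the upper digestive tract carry their own members of these enzyme families, among them Adh7 and Aldh3a1. Ethanol and acetaldehyde are also known to disturb redox balance, fatty acid oxidation, protein folding and the daily clock of tissues.

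Each array carried the forestomach RNA in the red dye, Cy5, and a commercial pool of mouse RNA, the Universal Mouse Reference, in the green dye, Cy3. The dyes were never swapped, and all 4 control arrays lay on slide 1 while all 4 alcohol arrays lay on slide 2, in a separate scan. Slide, scan and alcohol therefore cannot be told apart. The Cy3 channel, whose RNA should be alike on every array, measures how far the slides differ for each gene in that channel. A slide or scan difference confined to Cy5 would not show in it, so a steady Cy3 does not clear a Cy5 change of the slide. The quantities given throughout are the change in Cy5, the change in Cy3 and the change in the Cy5/Cy3 ratio, each as the mean of the 4-week arrays minus the mean of the control arrays on the log2 scale, with n = 4 and 4. A gene was taken as steady in the reference where its Cy3 change was under 0.3 in size. A gene was called where its limma p-value, adjusted over all 20732 genes tested, was under 0.05.

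Over background, the median Cy5 signal of a control array was 112 to 151 intensity units and that of a 4-week array 42.4 to 112. For Cy3 the ranges were 232 to 269 and 191 to 221. After normalization the arrays correlated with each other at 0.955 to 0.985 within the controls, 0.952 to 0.985 within the 4-week group and 0.931 to 0.985 between the groups. The squamous epithelium markers, which define the tissue, had a median Cy5 level between 15.81 and 16.76 on all 8 arrays. Markers of neighbouring organs were high on 3 arrays. The median level of 22 pancreas genes was 16.79 on control replicate 3 and 5.53 to 7.95 on the others, and that of 19 glandular stomach genes was 14.81 on control replicate 4 and 15.44 on 4-week replicate 2, against 5.54 to 6.65 elsewhere. Adipocyte genes had a median of 11.12 on control replicate 1 and 8.55 on 4-week replicate 3, against 12.33 to 13.45 on the rest. In tissue RNA of this kind, fewer cells of a type and less RNA per cell cannot be told apart.

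In Cy5 142 of the 20732 genes were called, which is 0.685% of those tested, with 99 higher (0.478%) and 43 lower (0.207%) after 4 weeks of alcohol. Most of these moved in the reference channel too: Cy3 changed by 0.3 or more in the same direction for 91 of the 99 that rose and 33 of the 43 that fell. Among the 16494 genes steady in the reference 17 were called in Cy5 (0.103%; 0.082% of all genes), of which 8 rose and 9 fell. Among the 4238 genes that were not steady 125 were called (2.95%). Across genes the Cy5 and Cy3 changes had a correlation of 0.525, and these values come from the same spots and slides. Genes with a symbol among the 17 include Mucl1, Maz, Cd55b, Galc, Ssh3, Ubl7 and Sec31a, which rose, and H4c4, Olfr1143, Ptn, Sertad3 and Slc12a1, which fell, and 4 probes have no gene name in the files. The calls depended on single arrays. Without control replicate 1, 2 or 4 or without 4-week replicate 2 no gene was called in Cy5, against 1 without 4-week replicate 1, 3 without 4-week replicate 4, 30 without 4-week replicate 3 and 39 without control replicate 3. The count of genes at an unadjusted p under 0.05 stayed between 2701 and 3540 in those fits, against 3504 (16.9%) with all arrays.

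**Figure D1:**
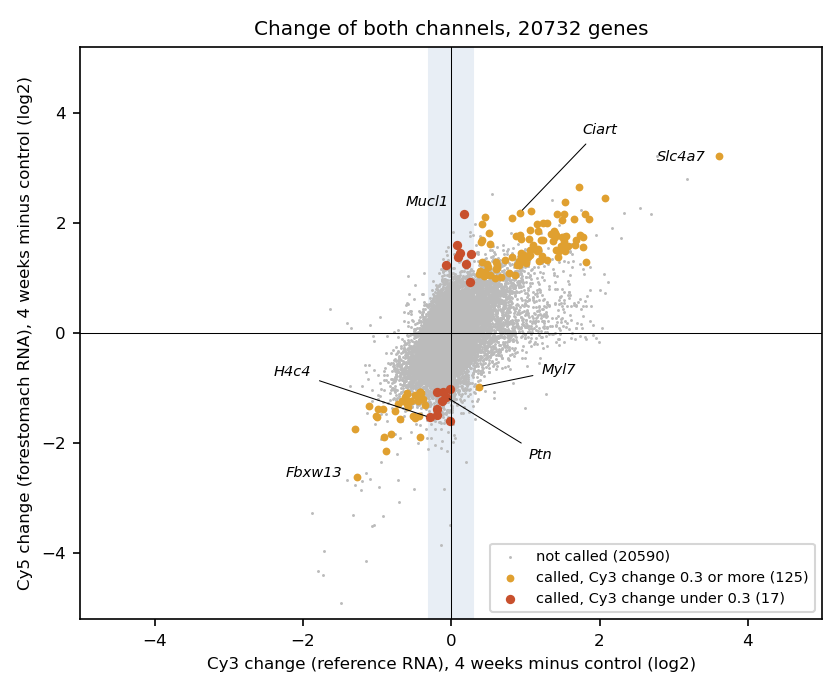
Change in Cy5 (forestomach RNA, y axis) against change in Cy3 (reference RNA, x axis) for the 20732 genes tested, both as log2 of 4 weeks minus control; coloured points are the 142 genes called in Cy5, split by whether the Cy3 change was under 0.3. Most called genes, 125, lie outside the shaded vertical band of steady Cy3, and 17 lie within it.

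The rises that the reference channel did not share were led by Mucl1, which encodes a small mucin-like secreted protein. Its Cy5 level was 3.71, 4.31, 4.12 and 3.32 in the controls and 6.81, 5.17, 6.51 and 5.6 after 4 weeks. The groups did not overlap, and control replicate 4 lay at the lowest level the scale allows, 3.32, which is the log2 of the floor of 10 intensity units. Mucl1 rose by 2.16 ± 0.38 (SE of the limma fit, adjusted p = 0.046). In Cy3 none of the 8 arrays had it well above background, so its Cy3 change of 0.18 is that of a signal near background. The probe is placed on unassigned sequence (Un_random, 4838040 to 4838099) in mm9, the build of the scanner files.

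Maz, a zinc finger transcription factor that binds GC-rich promoters, was well measured in both channels. Its Cy5 level was 6.68, 6.26, 6.62 and 6.74 in the controls against 8.40, 8.10, 8.67 and 7.51 after 4 weeks. All 4 alcohol arrays lay above all 4 controls, with 4-week replicate 4 the lowest of its group. Maz rose by 1.59 ± 0.26 (limma adjusted p = 0.039), with 0.08 in Cy3. Its ratio change of 1.14 was not called (adjusted p = 0.081), and both of its other kept probes were higher too (0.55 and 0.74 in Cy5). Its probe lies on chromosome 7 at 134165980 to 134166039, minus strand.

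Ubl7 encodes a ubiquitin-like protein and had a near constant reference signal. Its Cy5 level was 9.85, 10.05, 10.56 and 10.46 in the controls and 11.32, 11.35, 11.80 and 11.39 after 4 weeks, with no overlap. It rose by 1.23 ± 0.22 in Cy5 (limma adjusted p = 0.046) and by 1.17 in the ratio (adjusted p = 0.035), with -0.07 in Cy3, and its other kept probe gave 1.14. The probe lies on chromosome 9 at 57777619 to 57777678, plus strand.

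Ssh3, a slingshot phosphatase that activates the actin-severing protein cofilin, had the smallest p of the named rises with steady Cy3. The Cy5 level was 8.10, 8.28, 8.56 and 8.19 in the controls and 9.45, 9.53, 9.74 and 9.44 after 4 weeks. Every 4-week array lay above every control. Ssh3 rose by 1.25 ± 0.18 in Cy5 (limma adjusted p = 0.029) and by 0.91 in the ratio (adjusted p = 0.035), with 0.20 in Cy3, from a probe on chromosome 19 at 4262021 to 4262080.

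Galc, the lysosomal enzyme that removes galactose from galactolipids, had Cy5 levels of 6.05, 6.76, 6.08 and 6.53 in the controls and 7.80, 8.06, 7.79 and 7.28 after 4 weeks. The groups did not overlap. Galc rose by 1.38 ± 0.24 in Cy5 (limma adjusted p = 0.045) and by 0.91 in the ratio (adjusted p = 0.035), with 0.09 in Cy3. Its other kept probes disagreed, with Cy5 changes of 0.39 and -0.61. Among the 39 measured lysosome genes 29 were higher and 10 lower in Cy5 with a median of 0.16. Galc was the only one called, where 0.685% of all genes were called. Of 37 steady members 1 was higher and 2 lower at an unadjusted p under 0.05 (8.1%, against 12.5% of all steady genes).

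Sec31a, an outer subunit of the COPII coat that carries cargo from the endoplasmic reticulum, was well measured on every array. Its levels were 12.75, 13.05, 12.73 and 12.70 in the controls and 13.64, 13.65, 13.89 and 13.75 after 4 weeks, and the groups did not overlap. Sec31a rose by 0.92 ± 0.17 in Cy5 (limma adjusted p = 0.048). Its Cy3 change of 0.26 lay just inside the limit of 0.3, and its ratio change of 0.60 was not called (adjusted p = 0.088).

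Cd55b, an inhibitor of complement that the array design names Daf2, was dim. Its levels were 4.29, 4.69, 5.14 and 4.89 in the controls and 5.73, 6.44, 6.10 and 6.54 after 4 weeks, without overlap. It rose by 1.45 ± 0.25 in Cy5 (limma adjusted p = 0.045). Cy3 was well above background on 2 of the 8 arrays and differed by 0.12, and the ratio change of 0.58 was not called. The probe A_51_P482490, on chromosome 11 at 54013252 to 54013311 and without a gene name in the files, rose by 1.45 as well (limma adjusted p = 0.045).

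Rhob, Zfp69 and Drc3 stood just outside the threshold with steady Cy3 and no overlap. Rhob, a small GTPase of endosomes and the actin cytoskeleton, had levels of 9.84, 10.17, 10.13 and 10.06 in the controls and 10.92, 10.81, 11.19 and 11 after 4 weeks. Its Cy5 difference was 0.93 ± 0.17 (limma adjusted p = 0.050030), and it was called in the ratio (0.67, adjusted p = 0.048). The zinc finger gene Zfp69 had 1.31 in Cy5 (adjusted p = 0.051), and Drc3, a subunit of the ciliary dynein regulatory complex, had 1.10 (adjusted p = 0.053) from levels near the floor.

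**Figure D2:**
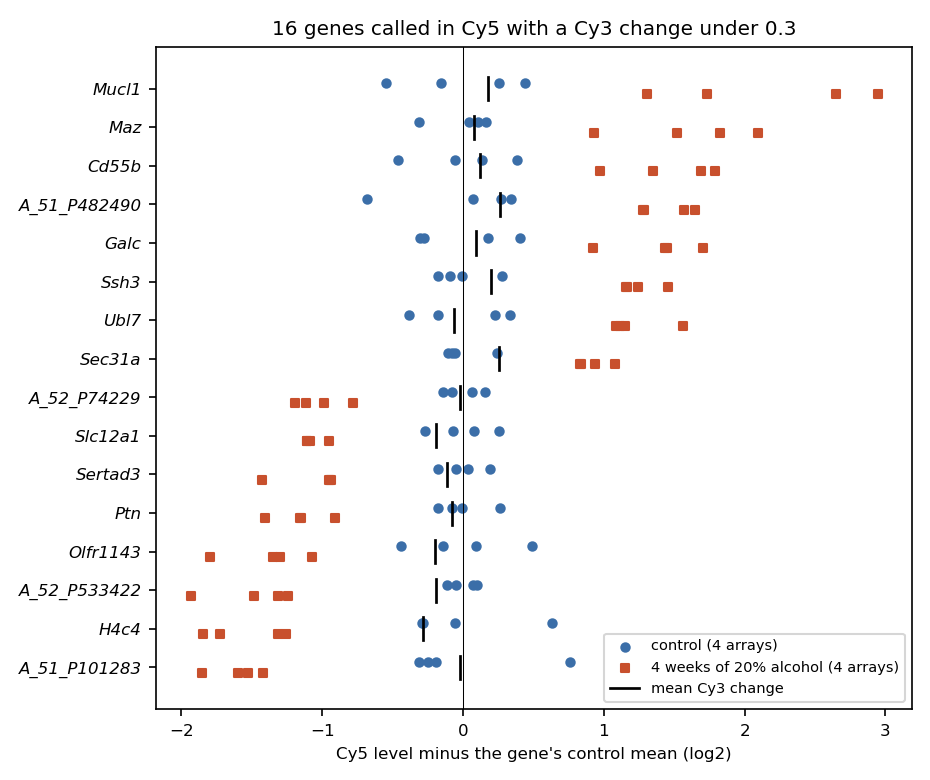
Cy5 level minus the control mean (log2) on each of the 8 arrays for 16 of the 17 genes and unnamed probes called in Cy5 with a Cy3 change under 0.3; points are single arrays of the control and 4-week groups and ticks are the mean Cy3 change. In all 16 the groups do not overlap, and the values of Slc12a1 after 4 weeks sit at or close to the floor of the scale.

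Among the falls was Ptn, pleiotrophin, a heparin-binding growth factor made by mesenchymal and other cells. Its Cy5 level was 12.48, 12.75, 12.41 and 12.31 in the controls and 11.58, 11.34, 11.08 and 11.33 after 4 weeks. Every 4-week array lay below every control. Ptn fell by 1.16 ± 0.18 on the log2 scale in Cy5 (limma adjusted p = 0.036) and by 1.07 in the ratio (adjusted p = 0.035). Its reference signal hardly moved, with a Cy3 level of 11.13 to 11.22 in the controls and 11.05 to 11.24 after 4 weeks. The probe spans 36691386 to 36693332 on chromosome 6, minus strand, a stretch longer than the 60 bases of a probe.

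Sertad3, a SERTA domain protein that acts in transcription, had levels of 10.78, 10.41, 10.54 and 10.63 in the controls and 9.65, 9.65, 9.17 and 9.64 after 4 weeks. The groups were apart, with 4-week replicate 3 lowest. It fell by 1.06 ± 0.19 in Cy5 (limma adjusted p = 0.045) and by 0.92 in the ratio (adjusted p = 0.035), with -0.11 in Cy3, from a probe on chromosome 7 at 28262201 to 28262260.

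The fall of Slc12a1, the sodium-potassium-chloride transporter of the kidney, ended at the floor. Its levels were 4.36, 4.16, 4.69 and 4.51 in the controls and 3.32, 3.48, 3.32 and 3.34 after 4 weeks, with no overlap. It was 2.09-fold lower after 4 weeks (limma adjusted p = 0.039). Over the alternative fits its Cy5 change ran from -1.60 to -0.17, so the size of the fall is uncertain. Its ratio change was 0.04 (adjusted p = 0.92). The gene was dim here, and median Cy5 signal over background was lower on the 4-week slide. It was lowest on 4-week replicate 4 (42.4), while 4-week replicate 2 (112) was level with control replicate 1 (112). On at least 3 control arrays and on no 4-week array 517 genes were well above background, against 8 genes the other way.

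Olfr1143, an odorant receptor gene, had levels of 8.53, 7.90, 8.13 and 7.60 in the controls and 6.74, 6.24, 6.96 and 6.69 after 4 weeks, with no overlap. It fell by 1.38 ± 0.25 in Cy5 (limma adjusted p = 0.047) with -0.20 in Cy3. It is 1 of 432 olfactory receptor genes tested, a family counted after its values were seen, of which 5 rose and 5 fell (2.31% called, against 0.685% of all genes). The family's median change was -0.25 in Cy5 and -0.20 in Cy3.

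The last 3 falls belong to probes without a gene name in the files. A_52_P533422, on chromosome 2 at 3600919 to 3600978, had levels of 9.29, 9.32, 9.11 and 9.17 in the controls and 7.29, 7.74, 7.91 and 7.98 after 4 weeks. It fell by 1.49 ± 0.20 (limma adjusted p = 0.025), the smallest adjusted p of the 17. A_51_P101283 fell by 1.6 (adjusted p = 0.039), and A_52_P74229, on chromosome 11 at 102437981 to 102438040, by 1.02 (adjusted p = 0.040).

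H4c4, a replication-dependent histone H4 gene, was among the genes that fell. Histone H4 is a core protein of the nucleosome, and its many gene copies encode the same protein and are transcribed mainly while DNA is replicated. The level of H4c4 was 15.36, 14.44, 14.44 and 14.67 in the controls and 12.88, 13.47, 13.00 and 13.41 after 4 weeks, with no overlap. H4c4 fell by 1.54 ± 0.26 in Cy5 (limma adjusted p = 0.039) and by 1.08 in the ratio (adjusted p = 0.039), with -0.29 in Cy3, and its other kept probe had -1.21 in Cy5 and -0.06 in Cy3.

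The other H4 genes were then examined, chosen after the values were seen, and the 5 probes are shown for the runs of bases they share with each other. The capitals mark the longest run that the probes of H4c4 and H4c6 share, 50 of their 60 bases.
H4c4: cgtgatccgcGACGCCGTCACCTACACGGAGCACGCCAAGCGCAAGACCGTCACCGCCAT
H4c6: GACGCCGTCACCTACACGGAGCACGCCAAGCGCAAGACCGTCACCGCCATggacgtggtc
H4c14: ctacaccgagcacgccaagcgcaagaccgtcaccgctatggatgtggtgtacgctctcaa
H4c1: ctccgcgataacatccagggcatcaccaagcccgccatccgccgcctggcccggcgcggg
H4f16: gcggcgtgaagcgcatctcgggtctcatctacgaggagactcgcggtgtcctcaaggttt
In mm9 the probes lie at chr13:23673665-23673724 (plus strand) for H4c4, chr13:23643249-23643308 (minus) for H4c6, chr3:96066953-96067012 (minus) for H4c14, chr13:23852901-23852960 (minus) for H4c1 and chr6:136752717-136752776 (minus) for H4f16. The probe of H4c14 shares a run of 29 bases with each of the first 2, while no run longer than 7 bases joins H4c1 or H4f16 to the others. The probes were compared with each other only, so a short shared run does not show that 2 probes read different transcripts. Signal from near-identical copies cannot be assigned to 1 gene, so each of these values is uncertain as to its gene.

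Of these probes only that of H4c4 passed the test in Cy5. The level of H4c6 was 15.34, 14.75, 14.89 and 14.92 in the controls and 13.49, 14.02, 13.72 and 14.15 after 4 weeks, a difference of -1.13 ± 0.21 (limma adjusted p = 0.057) with -0.13 in Cy3. In H4c1 the levels were 13.12, 12.09, 12.46 and 12.75 against 10.73, 11.13, 10.97 and 11.80, a difference of -1.45 ± 0.29 (adjusted p = 0.064). Neither gene's groups overlapped, and in the ratio both fell (H4c6 by 0.88, adjusted p = 0.045; H4c1 by 1.14, adjusted p = 0.048). H4c14 had -1.55 ± 0.36 (adjusted p = 0.086) without overlap and with -0.32 in Cy3, and H4f16 had -0.82 ± 0.30 (adjusted p = 0.217) with overlap. All 5 H4 genes were thus lower, with a median of -1.45 in Cy5, -0.18 in Cy3 and -1.08 in the ratio. The groups did not overlap in 4 of the 5, against 10.9% of all genes. These include H4c4, whose call led to the choice of the family, and H4c6 and H4c14, whose probes share runs of 50 and 29 bases with that of H4c4. They are not separate results.

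The 25 other replication histone genes measured had a median Cy5 change of -0.19, with 18 lower and 7 higher. The groups did not overlap in 4 of the 25, 3 of H2A and 1 of H1, against 10.9% of all genes. None was called, against 0.685% of all genes. By class the median was -0.35 for 9 H2A genes, -0.06 for 7 H2B genes, -0.18 for 3 H3 genes and -0.37 for 6 H1 genes. Of 38 measured genes of the cell cycle 24 were higher and 14 lower, none was called, and the median was 0.08, which became -0.02 without control replicate 4. Among them Mcm6, of the replicative helicase, had -0.60 (limma adjusted p = 0.201), Rrm2, of ribonucleotide reductase, -0.54 (0.257), the mitotic phosphatase Cdc25c 0.64 (0.201) and Cenpa, the centromeric histone, 0.92 (0.126) with 0.55 in Cy3.

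**Figure D3:**
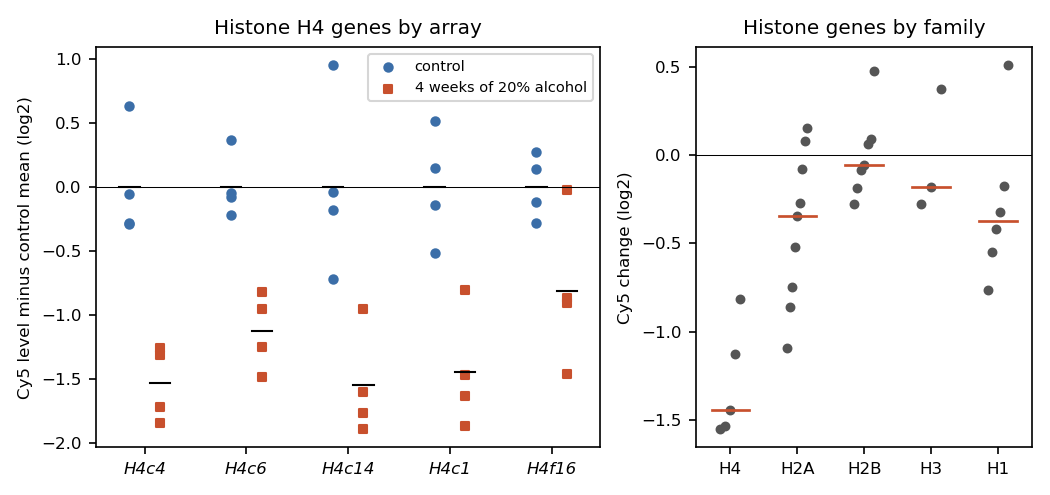
Left, Cy5 level minus the control mean (log2) of the 5 histone H4 genes on each of the 8 arrays; right, Cy5 change (log2, 4 weeks minus control) of the H4 genes and of the other replication histone genes by class. All 5 H4 genes lie below 0, and the other classes have medians between -0.37 and -0.06.

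Beyond the called falls in the order of p, further falls with steady Cy3 did not pass the threshold. Bccip, a partner of BRCA2 and of the cell cycle inhibitor p21, had levels of 14.15, 13.89, 13.87 and 13.76 in the controls and 13.10, 13.00, 13.09 and 13.08 after 4 weeks. Its groups did not overlap, its Cy5 difference was -0.85 ± 0.16 (limma adjusted p = 0.057), and it fell by 0.73 in the ratio (adjusted p = 0.035). Arl4c, a small GTPase, had -1.02 in Cy5 (adjusted p = 0.059), but its other kept probe had 0.18. Tbpl1, a relative of the TATA-binding protein, had -0.81 (adjusted p = 0.059), and both of its other probes were lower (-0.17 and -0.31).

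The ratio, which divides each spot's Cy5 by its Cy3, called more genes. Of 222 ratio calls (1.07% of the genes tested; 55 higher, 167 lower), 100 had steady Cy3 (0.482%), with 47 higher and 53 lower. All 100 had the same sign in Cy5, where their medians were 0.84 and -0.90, but the ratio holds those same Cy5 values, so this is no separate support. Of their 56 other kept probes 44 had the same sign. Among the rises, named here after their values were seen, Anxa11, a calcium-dependent membrane-binding annexin, had 1.15 in Cy5 and 0.76 in the ratio (limma adjusted p = 0.044), the heme-binding protein Hebp1 1.13 and 1.12 (0.039), Nr6a1, an orphan nuclear receptor, 1.04 and 0.77 (0.046), and Klf11, a Krüppel-like transcription factor, 0.98 and 0.75 (0.046). Steap3, an iron reductase, had 1.05 and 0.64 (0.043), Lfng, a glycosyltransferase that modifies Notch, 0.89 and 0.73 (0.039).

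Among the ratio falls with steady Cy3 several genes are known from muscle. Myocd, the coactivator that drives smooth muscle genes, fell by 1.14 in the ratio (limma adjusted p = 0.044) with -1.10 in Cy5 (0.2). Jph2, which ties the sarcoplasmic reticulum to the plasma membrane, fell by 0.95 (0.035) with -0.71 in Cy5, where its other kept probe had -0.01, and Eno3, the muscle enolase, by 1.13 (0.044) with -1.43 in Cy5 (0.062). Eno3 levels were 14.21, 14.02, 13.87 and 14.33 in the controls and 12.66, 12.55, 12.08 and 13.44 after 4 weeks, and the groups did not overlap. Myl7, an atrial myosin light chain, was the only Cy5 call whose Cy3 changed by 0.3 or more in the other direction. It fell by 0.98 in Cy5 (adjusted p = 0.045) and by 1.41 in the ratio (0.035) with 0.37 in Cy3, from 13.98, 13.78, 14.08 and 14.01 to 13.24, 12.90, 12.92 and 12.89. Jph2 and Myl7 were named after their values were seen.

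The 23 smooth muscle genes had a median of -0.17 in Cy5, with 18 lower and none called, but 0.66 in Cy3 and therefore -0.81 in the ratio, and 6 were steady in Cy3. Of these 6, 5 were lower and 1 higher, with a median of -0.50, and 3 were lower at an unadjusted p under 0.05 (50%, against 12.5% of all steady genes). The groups overlapped in Cy5 for all 23 genes, while 10.9% of all genes did not overlap. Desmin, Des, had -0.71 in Cy5 (limma adjusted p = 0.207) and 0.51 in Cy3, and Cald1, the actin-binding caldesmon, -1.30 (0.237). The 23 striated muscle genes had a median of -0.02, with 12 lower and 11 higher, and 3 of 19 steady members had an unadjusted p under 0.05 (15.8%). The sum of the striated list's linear levels ran from 39534 to 51730 in the controls and from 24488 to 42973 after 4 weeks. Eno3 is itself a member of that list, so the sum holds its fall and is no separate measure of muscle content. The part of muscle content in the falls of Eno3 and Myl7 was not tested.

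Ciart, a repressor of the circadian clock that the array design names Gm129, had the largest rise in the clock list and was called in both measures. Its Cy5 level was 7.69, 8.0, 7.22 and 7.80 in the controls and 10.23, 9.50, 9.86 and 9.84 after 4 weeks. Every alcohol array stood above every control. Ciart rose by 2.18 ± 0.23 in Cy5 (limma adjusted p = 0.025) and by 1.14 in the ratio (adjusted p = 0.035). Cy3 moved by 0.92 in the same direction.

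Clock repressors of this kind are driven by the CLOCK and BMAL1 pair through E-boxes, and the stretch before the Ciart start site is shown for its copies of the letters CACGTG, in capitals. The sequence is RefSeq's, build GRCm38.p6, chr3:95882229-95882358, minus strand, 130 bases that end 1 base before the start.
Ciart promoter: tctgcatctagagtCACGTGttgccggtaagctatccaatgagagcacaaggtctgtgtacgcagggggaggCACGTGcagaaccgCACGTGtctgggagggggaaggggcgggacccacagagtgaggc
CACGTG, which reads the same on both strands, stands 3 times in this stretch, beginning 116, 58 and 44 bases before the start, and it occurs in 1978 of 32851 mouse promoters (6.02%) within 250 bases before their starts. Per1 has it once at 1 of 2 start sites and the windows of Per3, Npas2 and Arntl2 do not hold it. A match is a description of the letters only.

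The rest of the clock moved little or without a call. Per3, a period gene, had levels of 7.12, 6.55, 6.64 and 6.47 in the controls and 5.24, 4.97, 6.08 and 5.58 after 4 weeks. These did not overlap, with a difference of -1.23 ± 0.27 (limma adjusted p = 0.078) and -0.20 in Cy3. Wee1, a clock-controlled kinase of the cell cycle, had 1.29 (0.126) with 0.39 in Cy3, and Nr1d1, the nuclear receptor REV-ERBα, 0.70 (0.190). Npas2, a partner of BMAL1, had -0.87 (0.162) with -0.36 in Cy3. Arntl2, a relative of BMAL1, was well above background on all 4 controls and on no 4-week array, 3.16-fold lower (adjusted p = 0.228). Its levels were 6.19, 6.48, 3.38 and 4.30 in the controls, so 2 of the 4 stood close to the 4-week values of 3.32 to 3.72. Of the 22 measured clock genes 15 were higher and 7 lower, with a median of 0.14. Only Ciart was called, where 0.685% of all genes were called. Of 19 steady members 3 had an unadjusted p under 0.05 (15.8%, against 12.5% of all steady genes).

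Many of the larger Cy5 rises, though not that of Mucl1, came with large Cy3 changes, and the genes given here were named after their values were seen. Slc4a7, a sodium bicarbonate cotransporter that regulates cell pH, had levels of 9.19, 9.64, 10.63 and 10.69 in the controls and 12.58, 13.19, 14.11 and 13.12 after 4 weeks. It rose by 3.21 in Cy5 (limma adjusted p = 0.025), yet by 3.61 in Cy3, and its ratio change was -0.62. Nab2, a corepressor of EGR factors, had 2.16 in Cy5 and 1.80 in Cy3, Spry4, an inhibitor of receptor kinase signalling, 2.07 and 1.85, and the epithelial keratin Krt80 1.80 and 1.34. The ratio changes of these 3 were 0.19, 0.10 and 0.37 and none was called. Spint2, an inhibitor of serine proteases, rose by 2.05 in Cy5 and kept 1.12 in the ratio (adjusted p = 0.044) with 1.49 in Cy3. Among the falls Fbxw13, an F-box protein, went from 9.55, 8.40, 8.76 and 8.75 to 6.10, 5.72, 6.43 and 6.72, by -2.62 in Cy5, -1.27 in Cy3 and -1.44 in the ratio (0.035). The reference channel called 1693 genes (8.17%), 1192 higher and 501 lower, so the 2 slides differed in Cy3 for far more genes than Cy5 called.

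Gene lists for the pathways that ethanol is known to touch were described by counts and medians, beside a median of -0.01 in Cy5 and -0.04 in Cy3 over all genes. None of the list members was called in Cy5 other than Ciart and Galc. Among genes steady in Cy3, 2054 (12.5%) had an unadjusted p under 0.05, 1019 higher and 1035 lower.

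Heat shock genes, the chaperones induced by misfolded protein, had the lowest Cy5 median of the pathway lists, -0.44, with 15 of 22 lower and a Cy3 median of -0.02. Of the 21 steady in Cy3, 7 were lower and 1 higher at an unadjusted p under 0.05 (38.1%, against 12.5%). Hspa4l, a cochaperone of the HSP110 class, had levels of 10.67, 10.58, 11.32 and 10.38 in the controls and 9.81, 9.78, 10.12 and 9.69 after 4 weeks. The groups did not overlap, its difference was -0.89 ± 0.23 (limma adjusted p = 0.118), and its 3 other kept probes were all lower. Hsph1, also of that class, had levels of 14.13, 13.00, 14.31 and 13.24 against 12.85, 12.41, 12.32 and 12.90, a difference of -1.05 (0.162) with no overlap. Hsp90aa1, the inducible HSP90, had 15.95, 14.70, 15.38 and 14.96 against 14.41, 13.62, 13.88 and 14.71, a difference of -1.10 (0.155), and 4-week replicate 4 overlapped the controls. The HSP40 gene Dnajb4 had -0.80 (0.137), with other probes at 0.69 and -0.72. The median level of the list was 14.33, 13.72, 14.13 and 13.73 in the controls and 13.68, 13.14, 13.42 and 13.72 after 4 weeks, so the groups nearly met, and leaving out any 1 array left the median between -0.48 and -0.29.

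The unfolded protein and amino acid response, which handles stress of the endoplasmic reticulum, had no common direction (12 of 27 higher, median -0.02). Asns, asparagine synthetase, had -1.0 (limma adjusted p = 0.087) with -0.33 in Cy3, the disulfide isomerase Pdia4 -0.80 (0.199), Creld2 -0.68 (0.202) and the cochaperone Dnajb9 0.42 (0.241), with its other probes at 0.71 and -0.01. Of 24 steady members 3 had an unadjusted p under 0.05 (12.5%). Of 43 genes for cytosolic ribosomal proteins 30 were lower (median -0.13), 5 of 38 steady members had an unadjusted p under 0.05, all lower (13.2%), and Rpl35 (-0.58, adjusted p = 0.133), Rpl22 (-0.53, 0.172) and Rps20 (-0.65, 0.249) were among those of lowest p. The other kept probe of Rpl22 had the opposite sign, at 0.32.

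Fatty acid oxidation and PPAR target genes stood higher in 21 of 27, with a median of 0.22 in Cy5 and 0.07 in Cy3, and of 22 steady members 3 had an unadjusted p under 0.05, all higher (13.6%). Cpt1b, the muscle-type carnitine palmitoyltransferase that brings fatty acids into mitochondria, had levels of 6.56, 7.39, 6.42 and 6.82 in the controls and 7.94, 7.93, 7.89 and 8.17 after 4 weeks. The groups did not overlap. Its Cy5 difference was 1.18 ± 0.23 (limma adjusted p = 0.061) and it rose by 0.73 in the ratio (0.041), with another probe at 0.16. Decr1, which prepares unsaturated fatty acids for oxidation, had 0.79 (0.110), the peroxisomal enzyme Ehhadh 1.16 (0.124) with 0.54 in Cy3, and Plin2, which coats lipid droplets, 0.62 (0.244).

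Glucocorticoid response genes were higher in 19 of 20, with a median of 0.27 in Cy5 and 0.01 in Cy3, and none was called. Of 18 steady members 2 had an unadjusted p under 0.05 (11.1%, against 12.5%), and the groups did not overlap in 1 of the 20 (10.9% of all genes). Cdkn1a, the cell cycle inhibitor p21, had levels of 13.27, 12.99, 13.22 and 13.21 in the controls and 13.99, 13.50, 13.75 and 13.83 after 4 weeks. It did not overlap, with 0.59 ± 0.18 in Cy5 (limma adjusted p = 0.153) and a rise of 0.63 in the ratio (0.048). Errfi1, an inhibitor of the EGF receptor, had 0.59 (0.243) and the HSP90 cochaperone Fkbp5 0.45 (0.310), with its other probes at 0.04 and -0.04. The list's median level overlapped between groups, at 11.93 to 12.61 in the controls and 12.03 to 12.83 after 4 weeks.

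FOXO and fasting response genes were mixed, with 8 of 20 higher and a median of -0.13, and 4 of 17 steady members had an unadjusted p under 0.05 (23.5%), 3 higher and 1 lower. Txnip, the thioredoxin-interacting protein that limits glucose uptake, had levels of 14.16, 14.94, 14.23 and 14.68 in the controls and 15.46, 15.45, 15.50 and 15.50 after 4 weeks. Its 4-week arrays were nearly equal and above all controls. The difference was 0.98 ± 0.21 in Cy5 (limma adjusted p = 0.075), the ratio rose by 1.06 (0.044), and its other probe had 0.52. Arrdc2, an arrestin-domain relative of Txnip, had 0.95 in Cy5 (0.140) and rose by 0.92 in the ratio (0.044), and Foxo1 itself had 0.57 (0.153). Fbxo32, the muscle atrophy ubiquitin ligase, had -0.82 (0.282).

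NRF2 target and glutathione genes, the antioxidant programme, were higher in 23 of 29 with a median of 0.15, and 3 of 23 steady members had an unadjusted p under 0.05, all higher (13.0%). Gclm, the regulatory subunit of glutamate-cysteine ligase, which sets the rate of glutathione production, had levels of 8.52, 8.93, 8.92 and 9.0 in the controls and 9.69, 9.72, 9.03 and 9.88 after 4 weeks. Its groups nearly met at 4-week replicate 3. The Cy5 difference was 0.73 ± 0.23 (limma adjusted p = 0.166), and Gclm rose by 0.71 in the ratio (0.044). Malic enzyme, Me1, had 0.61 (0.214), the epoxide hydrolase Ephx1 0.52 (0.243), and the glutathione transferase Gsta4 0.66 (0.274) with 0.78 in Cy3.

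No enzyme of ethanol or acetaldehyde oxidation was called in Cy5. The list of 22 had a median of 0.13, with 14 higher and 8 lower, and 4 of 15 steady members had an unadjusted p under 0.05 (26.7%), 3 higher and 1 lower. Aldh3a1, the aldehyde dehydrogenase typical of cornea and upper digestive epithelium, had levels of 9.80, 9.79, 10.35 and 10.10 in the controls and 12.19, 10.88, 11.13 and 11.80 after 4 weeks. The groups did not overlap, at 1.49 ± 0.30 (limma adjusted p = 0.064), but Cy3 moved by 1.55 and the ratio by 0.08. Aldh9a1 had 0.60 (0.170) and the fatty aldehyde dehydrogenase Aldh3a2 0.55 (0.278), with -0.02 and 0.07 in Cy3. Adh6a, an alcohol dehydrogenase, had -0.69 in Cy5 (0.211) with overlap and fell by 0.90 in the ratio (0.035). Of further enzymes, named after their values were seen, Aldh1a1 had 0.44 (0.278), the stomach alcohol dehydrogenase Adh7 0.68 (0.296) with 0.67 in Cy3, and the mitochondrial Aldh2 0.41 (0.522).

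**Figure D4:**
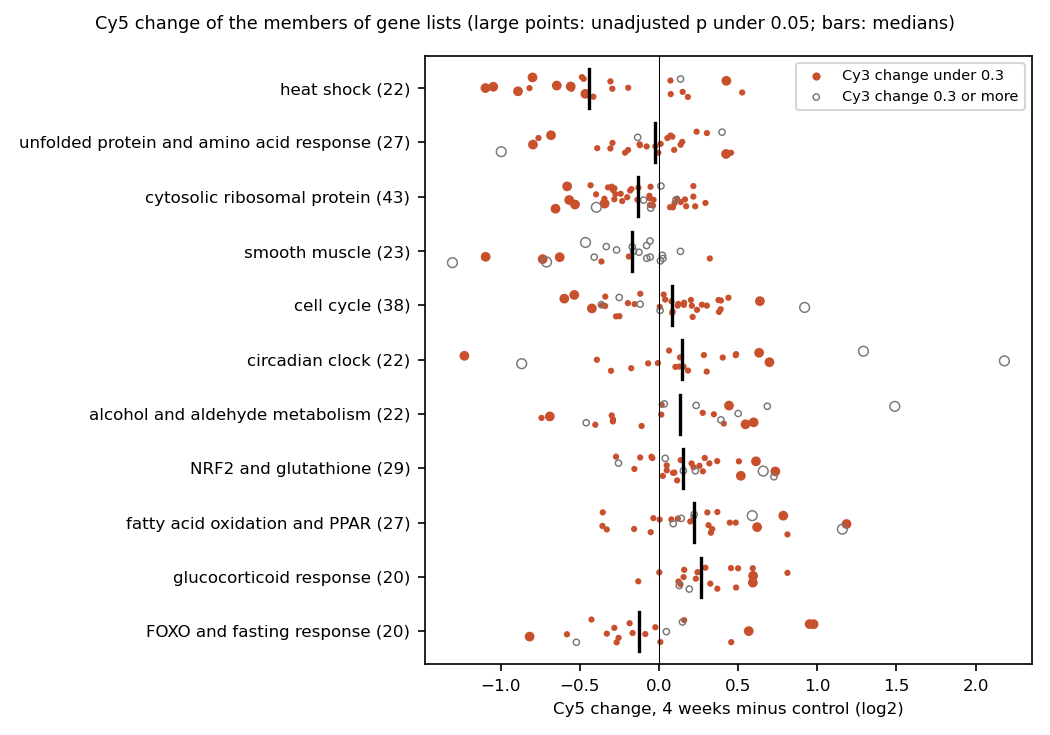
Cy5 change (log2, 4 weeks minus control) of each measured member of 11 gene lists, with the number of members in brackets; filled points had a Cy3 change under 0.3, large points an unadjusted limma p under 0.05, and bars mark list medians. Medians run from -0.44 for heat shock to 0.27 for the glucocorticoid response, and most members of every list lie within 1 of zero.

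Cornified envelope and squamous markers could be read in Cy5 only with the reference beside them. The 50 measured cornified envelope and differentiation genes had a median of 0.12 in Cy5, 1.43 in Cy3 and -1.28 in the ratio, and only 5 were steady in Cy3. Those 5 had a median of -0.77 in Cy5, 4 lower and 1 higher, none at an unadjusted p under 0.05. In the ratio 18 of the 50 were called lower, against 167 of all 20732 genes, and in Cy5 none of the 50 was called. The 20 squamous markers had 0.10 in Cy5 and 1.45 in Cy3. The 29 stress keratins and alarmins had -0.12 in Cy5, which became 0.11 without 4-week replicate 4, and 0.32 in Cy3. Of that list Serpinb3c, a serine protease inhibitor of squamous epithelium, was steady in Cy3, with levels of 16.13, 15.82, 16.36 and 15.45 in the controls and 14.94, 14.51, 14.96 and 13.66 after 4 weeks, a difference of -1.42 ± 0.32 (limma adjusted p = 0.084) and a fall of 1.43 in the ratio (0.041).

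Markers of other cell types followed single arrays. The 22 pancreas genes were all lower, with a median of -2.82 in Cy5 that became -0.55 without control replicate 3, and the sum of their linear levels was 2865700 on control replicate 3, 488610 on control replicate 4 and 873420 on 4-week replicate 2, against 3640 to 5521 on the rest. Pnlip, pancreatic lipase, was 21.0-fold lower after 4 weeks, yet far from called (limma adjusted p = 0.422). The 34 interferon response genes had a median level of 11.77 on 4-week replicate 2 and 10.52 on control replicate 4, the same arrays on which the glandular stomach genes were high, against 8.17 to 8.90 on the others. The median change of the interferon list was 0.14, and -0.47 without 4-week replicate 2. Adipocyte genes had a median change of -0.23, and 0.29 without 4-week replicate 3. Macrophage and dendritic cell genes had -0.09, lymphocyte genes -0.18, fibroblast genes 0.10 and endothelium genes -0.10, with none called in any of them, and each of these medians rested on single arrays. Macrophage genes had 0.06 without control replicate 4, lymphocyte genes 0.02 and fibroblast genes -0.00067 without control replicate 3, and endothelium genes 0.04 without 4-week replicate 1. Without control replicates 3 and 4 and 4-week replicate 2 together, 45 genes were called in Cy5, 10 of them with steady Cy3, and none of the 17 was among them.

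**Figure D5:**
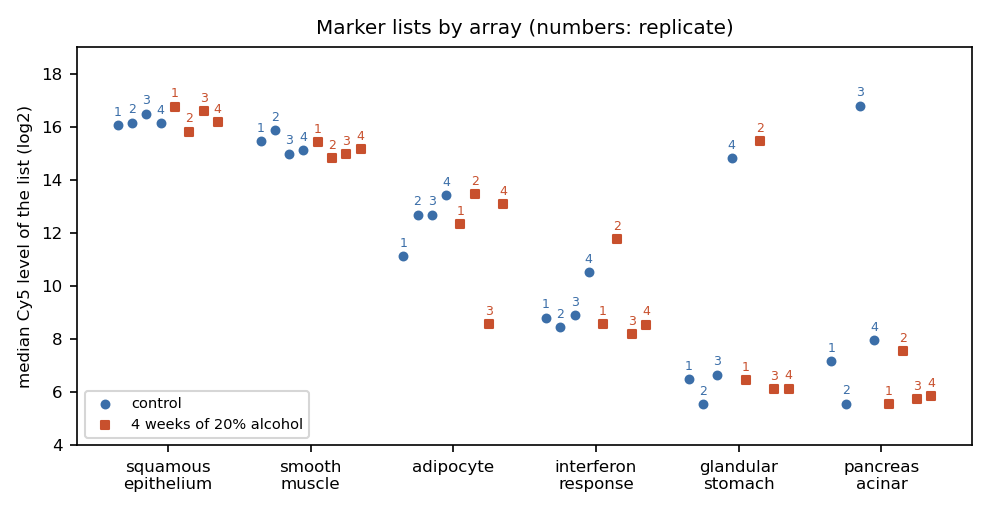
Median Cy5 level (log2) of marker lists for each cell type or organ on each array, control or 4-week, with the replicate number beside the point. Squamous markers are level over all arrays, while pancreas, glandular stomach, interferon and adipocyte lists stand apart on single arrays of either group.

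Genes seen in only 1 group were mostly seen in the controls, whose Cy5 signal was brighter. Of the 517 well above background only in controls 20 were called and 273 were steady in Cy3, and of the 8 seen only after 4 weeks 3 were called and 3 were steady. Over all genes 0.685% were called, but these genes were selected for a difference between the groups, so their calls are no separate result. Cep20, a centrosomal protein, was 5.46-fold higher after 4 weeks (limma adjusted p = 0.025) with 2.08 in Cy3. Smg8, of the nonsense-mediated decay kinase complex, was 3.96-fold higher (0.029) with 1.16 in Cy3. Both folds rest on controls at or close to the floor of 3.32. Cep20 was at 3.32 on control replicates 1, 2 and 3 and at 3.76 on control replicate 4. Over the alternative fits the Cy5 change ran from 0.81 to 3.71 for Cep20 and from 0.61 to 3.04 for Smg8, so the size of each rise is uncertain. Klra4, a receptor of natural killer cells, was 2.24-fold higher with -0.05 in Cy3 but was not called (0.115).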

How the data were processed

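Total RNA of whole forestomach was isolated with an RNeasy Fibrous Tissue kit, amplified and labelled with Agilent's low-input linear amplification kit and hybridised with labelled reference RNA, per the labels' protocols. The deposited scanner files give the intensity of each spot and of its local background in both channels on a linear scale, and the authors extracted them with Agilent Feature Extraction, version 9.1 per the submitters' processing notes and 10.7.3.1 per the file headers. Files of 8 arrays were used. Each deposited file also holds Agilent's log10 ratio of Cy5 over Cy3, processed signals, and flags (other columns, per the file headers) for spots well above background and for outliers. The authors' deposited value table, in log2, served as an alternative. Its columns ran with the scanner's own ratio of Cy5 over Cy3 (correlations of 0.921 to 0.963 over probes), which settles its direction, and had medians of 0.024, 0.05, 0.067 and 0.049 in the controls and 0.036, 0.045, 0.042 and 0 in the 4-week arrays. How it was centred is not given in the sources used here.

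The median background of each spot was subtracted from its mean signal in each channel, and the difference was set to a floor of 10, put on the log2 scale and quantile normalized over 8 arrays. The ratio used normexp with an offset of 50 and loess within each array. Of 45018 spots 1639 were control spots. Probes (30455 of 41174) were kept where 3 or 4 arrays of a group were flagged well above background in Cy5, and the brightest probe stood for each of 20732 genes, 17269 with a symbol. Of the kept probes 1814 passed on exactly 3 arrays, with a median raw Cy5 of 22.6, and 1585 probes with 2 arrays, at 16.4, stayed out. Symbols came from RefSeq by accession (27029 probes), symbol (5010) or synonym (795), or from the file (982), and 7358 probes had none. Tests were limma 3.58.1 (lmFit and eBayes, R 4.3.3) on the 8 arrays with Benjamini-Hochberg adjustment. The fit was tested on simulated data. A bound takes the bright group's mean over the dim group's mean of, per array, the higher of the lowest signal well above background and the probe's own. The number of arrays limits the precision.

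The members and lists were chosen with earlier results of these data known. Named genes are up to 20 of each direction called in Cy5 with steady Cy3, filled to 10 with uncalled genes of unadjusted p under 0.01 and no overlap, then up to 4 members of lowest p of each list described, then genes above background in 1 group only. A few genes that meet it are not reported here. Names outside this rule are said to be chosen after their values were seen. Replicate numbers equal positions on a slide. Deviations of same-numbered arrays correlated at 0.45, -0.39, 0.12 and -0.21, with no common sign. Those of control replicate 4 and 4-week replicate 2, which differ in number, correlated at 0.68. Such values cannot decide whether the numbers pair the samples. Alternatives covered background correction, floor, scaling, filter, Cy3 limit, array weights, replicate block and left-out arrays.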

Additional observations from a re-analysis of the deposited data

Results flagged for a closer look

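Single arrays were set against the rest of their group of 4 by Dixon's gap criterion, for 109 genes and 32 list medians named or examined above, in 282 groups. Of these 24 stood out (8.51%), where chance gives about 1 in 20. No array accounts for most of them, and 4-week replicate 2 has 7.

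The list medians that stood out were those of organs and interferon. The glandular stomach list was at 14.81 on control replicate 4 and at 15.44 on 4-week replicate 2, and on that array the interferon list was at 11.77 and the pancreas list at 7.55. Their part in the changes of other genes was not tested beyond leaving these arrays out.

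Among genes that passed the test, H4c4 and its relatives were not among those flagged. Sec31a was high on control replicate 2 (13.05), Ubl7 high on 4-week replicate 3 (11.80), Sertad3 low on 4-week replicate 3 (9.17), Myl7 high on 4-week replicate 1 (13.24) and the probe A_51_P101283 high on control replicate 1 (7.60, against 6.53 to 6.65 on the other controls). Each of these single arrays lay on its own group's side of the other group. Close to the floor of 3.32, where distances carry little, were Slc12a1 on 4-week replicate 2 (3.48), Arntl2 on 4-week replicate 2 (3.72), Cep20 on control replicate 4 (3.76) and Smg8 on control replicate 1 (4.13).

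Among genes that did not pass, control replicate 1 was low for Gclm (8.52), Cdc25c (5.71) and Dnajb9 (10.87). Control replicate 2 was low for Asns (12.31) and high for Per1 (10.87), and control replicate 4 was low for Dnajb4 (11). On the alcohol slide replicate 1 was high for Rpl22 (16.73) and low for Rrm2 (9.58), replicate 2 was low for Des (13.65) and Hspa1a (13.18), and replicate 3 was high for Hspd1 (15.18).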

How the results depend on the processing

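All 111 genes examined kept their direction under every alternative run. They were picked by their values on these same arrays, so this is no separate support. Calls did not hold: of the tests of these genes under alternatives 402 lost a call and 45 gained one. Of the 17 genes called in Cy5 with steady Cy3, 17 kept the call with array weights, 12 with the scanner's processed signals, 12 of the 12 tested with probes above background on all 8 arrays, 10 with 75th percentile scaling, 9 with a trended prior, 8 with normexp, without the filter or with every probe by itself, 7 with a floor of 1, 2 without control replicate 3, and none without any other array.

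The count of Cy5 calls (142) became 65 with normexp, 92 with a floor of 1, 315 with processed signals, 91 with a trended prior, 227 with array weights, 45 without the 3 arrays rich in pancreas or glandular stomach genes and 3 without the 2 arrays low in adipocyte genes, the last chosen after seeing the data. Normexp turned the split to 53 higher and 12 lower, the floor of 1 to 76 and 16, and probes above background on all 8 arrays to 92 and 16. The count with steady Cy3 (17) became 7 with a floor of 1, 92 with processed signals, 47 without the filter on dim probes, 49 with array weights, 11 with every probe by itself, 41 with a Cy3 limit of 0.5, 10 without the 3 arrays and 0 without the 2. Under 75th percentile scaling its split was 2 higher and 12 lower, against 8 and 9. The called list members (2) became 1 with normexp or 75th percentile scaling. The ratio count (222) became 552 without background correction, 0 with median centring (2827 genes at an unadjusted p under 0.05 by limma), 666 with the scanner's log ratio and 143 from the deposited table, and with steady Cy3 (100) these were 255, 0, 320 and 43. Leaving out 1 array gave 0 to 39 Cy5 calls, 0 to 2 with steady Cy3, 0 to 52 in the ratio, 0 to 4 of these with steady Cy3, 755 to 2092 in Cy3 and 0 to 1 list members; these fits have fewer samples. For the other changes the cause was not tested.

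With the replicate number as a block limma called 0 genes in Cy5 (4051 at an unadjusted p under 0.05). It called 0 with steady Cy3 (2423), 0 in the ratio (3785), 0 in the ratio with steady Cy3 and 1209 in Cy3. Whether the numbers pair the samples is not known, so this fit cannot tell absent effects from weak ones. The calls in Cy5 and in the ratio hold only without the block. Slide or scan as a block could not be fitted, because each holds 1 group. Genes near background, 12.9% to 28% of probes per array at the floor in Cy5, are limited by signal.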
